A study of Mus musculus with 4 samples.

Results

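The interleukin-1 family is described here in mouse mammary gland cells after transplantation, through 8 named genes, the ligands Il1a, Il1b, Il18 and Il33, the antagonist Il1rn, and the receptors Il1r1, Il1r2 and Il1rl1. They were chosen by name, and a gene counted as measured where the platform annotation gave a probe set its symbol alone. Of the 8 genes, 7 were measured, through 9 of the 28898 probe sets with 1 symbol, among 17097 genes in all. Il1rl1 had no such probe set and was not analysed. Il1rn had 3 probe sets and each other gene 1, and the brightest over the arrays stands for the gene unless another is named.

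Interleukin-1 alpha and interleukin-1 beta are cytokines of injury and infection that both act through the receptor encoded by Il1r1, which recruits the accessory chain encoded by Il1rap and the adaptor Myd88 and activates NF-kB. The product of Il1rn occupies that receptor without signalling, and the product of Il1r2 binds the ligands as a decoy. Interleukin-18 and interleukin-33 act through receptors of their own, and that of interleukin-33 is the product of Il1rl1. Interleukin-1 beta and interleukin-18 are made as precursors that caspase-1 cleaves, so RNA levels do not give the amount of active cytokine.

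The BC alone group came from transplants of 10000 BC cells, and the control group from transplants of 8000 LC cells with 2000 BC cells. The labels give both as mammary gland cells, collected 3 days after transplantation, with RNA from 50 sorted cells on each array and 2 arrays in each group, and name the conditions multipotent and unipotent. They give no strain, genotype, age or sorting gate, spell out neither BC nor LC, and do not say whether the arrays of a group came from separate animals, so p-values measure only how far these arrays differ, possibly for technical reasons, and their small number limits the precision. The study asks how collagen signalling and stiffness bear on multipotency, and the presence of LC cells and the smaller input of BC cells go together in the control, so their effects cannot be told apart.

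Values are log2 expression after RMA, the authors' background correction, normalization and probe summary. No detection calls came with them, so the middle of each array, a median over all probe sets of 4.38 and 4.37 in BC alone compared with 4.38 and 4.62 in the mixed control, serves as a mark of dimness and not as a limit of detection. Control replicate 2 stood apart. Its values had an SD of 1.44, where the other arrays had 1.90 to 1.92, and 6 basal epithelial markers averaged 9.26 and 9.08 in BC alone compared with 9.40 and 6.17 in the mixed control.

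Il1b and Il1rn were lower in BC alone on both arrays, the receptor genes Il1r1 and Il1r2 and the ligand genes Il1a and Il18 differed by less than 2-fold, and Il33 differed more between the 2 BC alone arrays than between the groups. The limma fit put 0 of the 7 under an adjusted p of 0.05, as it did for 0% of all 17097 genes. At an unadjusted p under 0.05 there were 2 of the 7, Il1b and Il1rn, and 680 of all genes, or 3.98%. With an intensity trend in the variance model 97 genes of the array passed, and none of them was a member. With 2 arrays on each side, the smallest p that an exact permutation test allows is 0.333.

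**Figure D1:**
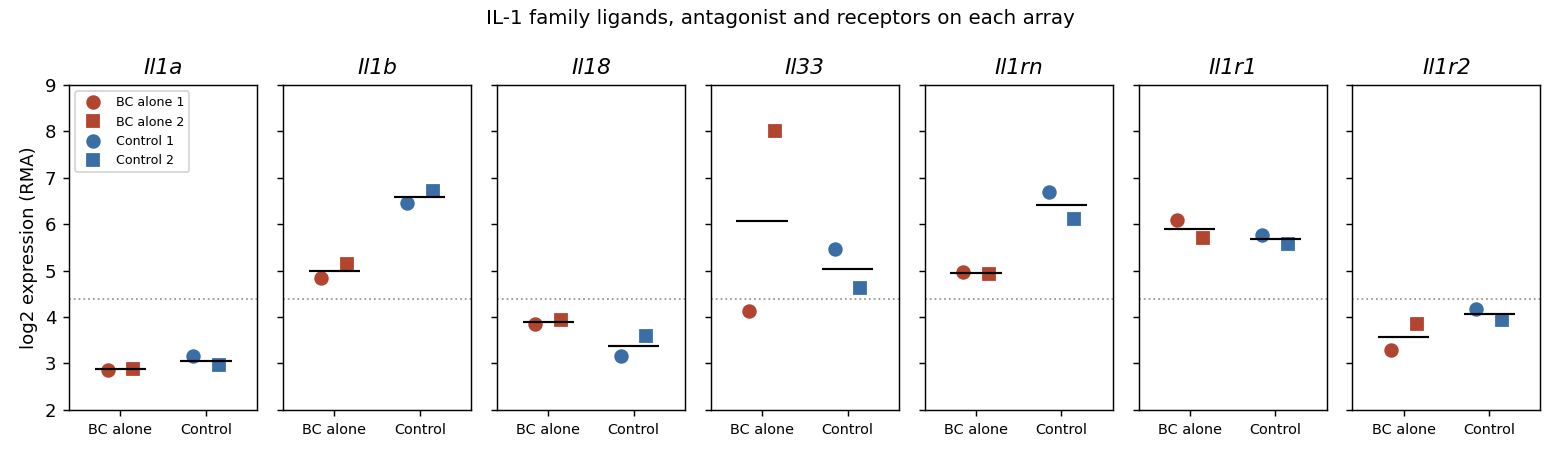
Log2 expression of the 7 measured genes on each array (vertical axis), BC alone left and control right in each panel; points are arrays, black bars group means, and the dotted line is the array median of 4.38. Il1b and Il1rn lie lower on both BC alone arrays than on both control arrays, Il1a, Il18 and Il1r2 lie under the dotted line throughout, and Il33 is at 8.0 on BC alone replicate 2.

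Il1b, the gene of interleukin-1 beta (probe set 1449399_PM_a_at), had log2 values of 4.83 and 5.14 in BC alone compared with 6.45 and 6.72 in the mixed control. The groups did not overlap, and every BC alone array was lower than every control array by 1.31 to 1.89. The arrays of a group lay close together, 0.31 apart in BC alone and 0.27 apart in the control, where the median gap over all genes was 0.20 for BC alone and 0.52 for the control. The group means were 4.99 ± 0.22 for BC alone and 6.59 ± 0.19 for the control (SD, n = 2), a log2 difference of -1.60 ± 0.32 (SE), which corresponds to a level 3.03-fold higher in the control. The 95% interval of the difference ran from -2.39 to -0.81, and limma gave an unadjusted p of 0.003 and an adjusted p of 0.842. Il1b lay above the array median by 0.45 and 0.77 in BC alone and by 2.07 and 2.10 in the control.

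Il1rn, the gene of the receptor antagonist (probe set 1423017_PM_a_at), had 4.96 and 4.92 in BC alone compared with 6.70 and 6.11 in the mixed control. Both BC alone arrays were lower than both control arrays, and they differed from each other by only 0.04. The means were 4.94 ± 0.03 for BC alone and 6.41 ± 0.42 for the control (SD, n = 2), a log2 difference of -1.465 ± 0.34 (SE), or 2.76-fold higher in the control, with a 95% interval from -2.32 to -0.61 (limma, unadjusted p = 0.0063, adjusted p = 0.842). The other probe sets of Il1rn pointed the same way. Probe set 1451798_PM_at had 4.94 and 4.83 in BC alone compared with 6.69 and 5.82 in the mixed control. Probe set 1425663_PM_at had 4.99 and 4.81 in BC alone compared with 5.40 and 6.85 in the mixed control. The groups were separate in all 3, with differences of -1.465, -1.37 and -1.225, but they disagreed on which control array was the higher one, replicate 1 in the first 2 and replicate 2 in the last.

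By the rule of at least 2-fold and no overlap, Il1b and Il1rn made 2 of 7 members lower in BC alone, where 0.895% of all genes, 153 of 17097, met it in that direction. In the other direction 0 of 7 members met it, against 4.79%, or 819 genes. The 819 and 153 became 334 and 280 after another quantile normalization and 301 and 232 after cyclic loess. Both genes had been reported among the lower ones before the members were listed, so the count describes them and is no independent evidence. Among the 153 lower genes Il1b held place 5 by p and place 20 by size, and Il1rn places 15 and 29. The difference ran from -1.88 to -1.445 for Il1b and from -1.76 to -1.17 for Il1rn over the alternatives, and both genes met the rule in all 12 settings of the whole fit. Without control replicate 2 the differences were -1.465 and -1.76, and without control replicate 1 they were -1.735 and -1.17.

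Il1a and Il1b are neighbours on mouse chromosome 2, and Il1rn lies elsewhere on that chromosome, next to Il1f10. Their promoters are shown because Il1b and Il1rn were lower together while Il1a, beside Il1b, was dim on every array. Each window holds 250 bases before and 50 after a transcription start, 5′ to 3′ on the strand of the gene, from RefSeq on GRCm38.p6. Capitals mark matches to TATAAA on the strand shown (the TATA box), and on both strands TGANTCA (AP-1), TTNNGNAA (C/EBP), GAGGAA (PU.1) and the NF-kB consensus.
Il1b, chr2:129371090-129371389, minus strand: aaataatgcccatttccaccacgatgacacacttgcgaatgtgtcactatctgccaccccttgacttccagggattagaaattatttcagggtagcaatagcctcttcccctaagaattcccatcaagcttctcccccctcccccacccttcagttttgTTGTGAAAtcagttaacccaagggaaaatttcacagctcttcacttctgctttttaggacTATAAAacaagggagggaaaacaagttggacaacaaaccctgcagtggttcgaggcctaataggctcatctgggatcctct
Il1a, chr2:129309923-129310222, minus strand: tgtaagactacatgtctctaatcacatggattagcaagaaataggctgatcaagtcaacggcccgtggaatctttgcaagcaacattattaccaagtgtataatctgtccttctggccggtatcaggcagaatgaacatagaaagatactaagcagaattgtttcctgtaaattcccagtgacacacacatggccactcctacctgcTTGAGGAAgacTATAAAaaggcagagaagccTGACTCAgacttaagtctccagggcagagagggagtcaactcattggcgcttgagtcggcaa
Il1rn, first start, chr2:24336610-24336909, plus strand: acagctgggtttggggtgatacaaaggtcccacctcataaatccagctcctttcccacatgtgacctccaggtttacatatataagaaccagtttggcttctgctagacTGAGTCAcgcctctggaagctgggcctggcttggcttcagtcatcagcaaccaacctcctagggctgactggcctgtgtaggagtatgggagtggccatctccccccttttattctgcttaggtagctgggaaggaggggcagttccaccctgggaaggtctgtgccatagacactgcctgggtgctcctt
Il1rn, second start, chr2:24345041-24345340, plus strand: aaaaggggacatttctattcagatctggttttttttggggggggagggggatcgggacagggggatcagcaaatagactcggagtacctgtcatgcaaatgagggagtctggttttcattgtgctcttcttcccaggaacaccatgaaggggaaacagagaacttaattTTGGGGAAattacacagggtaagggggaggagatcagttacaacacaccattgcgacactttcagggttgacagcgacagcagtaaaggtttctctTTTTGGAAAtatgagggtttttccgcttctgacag

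The Il1b window held TATAAA from 31 to 26 bases before the start and a C/EBP match from 91 to 84 bases before it. The Il1a window held TATAAA at 32 to 27 bases, an AP-1 match at 12 to 6 bases, and a C/EBP match that contains the PU.1 match. The first Il1rn window held an AP-1 match alone, at 141 to 135 bases, and the second held C/EBP matches alone, with a pair downstream of the start that overlap. A further start of Il1rn overlaps the second window and is not printed. Of 32851 promoters of this length, 8.32% held TATAAA, 7.81% the AP-1 letters, 40.7% the C/EBP letters, 28.3% the PU.1 letters and 5.80% the NF-kB consensus, which was not in any of these 4 windows. These matches describe letters, and neither binding nor use of a start was measured.

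Il1a, the gene of interleukin-1 alpha (probe set 1421473_PM_at), had 2.86 and 2.88 in BC alone compared with 3.15 and 2.97 in the mixed control. All 4 values lay under the array median, by 1.23 to 1.65. The groups did not overlap, yet the means of 2.87 ± 0.01 for BC alone and 3.06 ± 0.13 for the control (SD, n = 2) differed by only -0.19 ± 0.30 (SE), with an interval from -0.93 to 0.55 (limma, adjusted p = 0.854). Leaving out control replicate 1 gave -0.10, and leaving out replicate 2 gave -0.28. Whether this probe set saw any Il1a RNA cannot be read from these values.

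Il18, the gene of interleukin-18 (probe set 1417932_PM_at), had 3.85 and 3.93 in BC alone compared with 3.16 and 3.59 in the mixed control, also under the array median on every array. Both BC alone arrays were the higher ones. The means of 3.89 ± 0.06 for BC alone and 3.38 ± 0.30 for the control (SD, n = 2) differed by 0.515 ± 0.32 (SE), with an interval from -0.29 to 1.32 (limma, adjusted p = 0.842). Leaving out control replicate 2 gave a difference of 0.73, and leaving out replicate 1 gave 0.30.

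Il33, the gene of interleukin-33, a cytokine held in the nucleus of epithelial, stromal and endothelial cells and released on damage, had 4.14 and 8.0 in BC alone compared with 5.47 and 4.62 in the mixed control (probe set 1416200_PM_at). One BC alone array was above both control arrays and the other below both. The means of 6.07 ± 2.73 for BC alone and 5.05 ± 0.60 for the control (SD, n = 2) differed by 1.025 ± 1.23 (SE), with an interval from -2.04 to 4.09 (limma, adjusted p = 0.843), so the difference was smaller than the spread between arrays. It was 2.955 without BC alone replicate 1 and turned to -0.905 without BC alone replicate 2. It was 0.60 without control replicate 2.

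The gap of 3.86 between the BC alone arrays was among the largest on the whole array, since only 3 of 17097 genes, or 0.0175%, had one of that size, Il33 included. The other two, named here after their values were seen, were Csn2 and Btn1a1. Csn2, the gene of the milk protein beta-casein, had 4.67 and 9.18 in BC alone compared with 4.79 and 6.92 in the mixed control. Btn1a1, the gene of butyrophilin of the milk fat globule, had 6.26 and 10.25 in BC alone compared with 6.04 and 6.63 in the mixed control. Both were high on BC alone replicate 2, as Il33 was, and Csn2 was also raised on control replicate 2, where Il33 was not.

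Some markers of luminal cells were also higher on BC alone replicate 2 than on replicate 1. Aldh1a3, a retinaldehyde dehydrogenase of luminal progenitors, had 6.38 and 9.02 in BC alone compared with 7.05 and 6.57 in the mixed control. Elf5, an alveolar regulator, had 4.19 and 6.90 in BC alone compared with 6.01 and 5.37 in the mixed control. Kit, a receptor tyrosine kinase of luminal progenitors, had 4.06 and 6.29 in BC alone compared with 4.90 and 4.32 in the mixed control. Each of these 3 was highest on BC alone replicate 2, as was Esr1, the estrogen receptor, at 8.13 and 9.19 in BC alone compared with 6.48 and 6.72 in the mixed control. Other luminal markers went the other way between the BC alone arrays. The keratin genes Krt8 and Krt19 had 10.42 and 8.19 on replicate 1 and 10.30 and 8.04 on replicate 2, and Pgr, the progesterone receptor, had 6.57 and 5.59. Krt18 had 9.32 and 9.68. Over the 8 measured luminal markers the mean was 7.16 and 8.13 in BC alone compared with 7.52 and 6.45 in the mixed control. Of the 8, 2 lay under the array median on BC alone replicate 1 and 0 on replicate 2. The complement gene C1qa, a macrophage marker, also differed, with 4.57 and 7.07 in BC alone compared with 6.34 and 5.08 in the mixed control. C1qb was also highest on BC alone replicate 2, and C1qc was level there with control replicate 1, at 7.05. All other macrophage and monocyte markers were highest on a control array. Among them Csf1r, at 5.12 and 4.86, and Itgam, at 3.73 and 3.39, were lower on BC alone replicate 2 than on replicate 1. The part of these cells in the Il33 values was not tested. In such bulk samples, fewer cells of a type and less RNA per cell cannot be told apart.

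**Figure D2:**
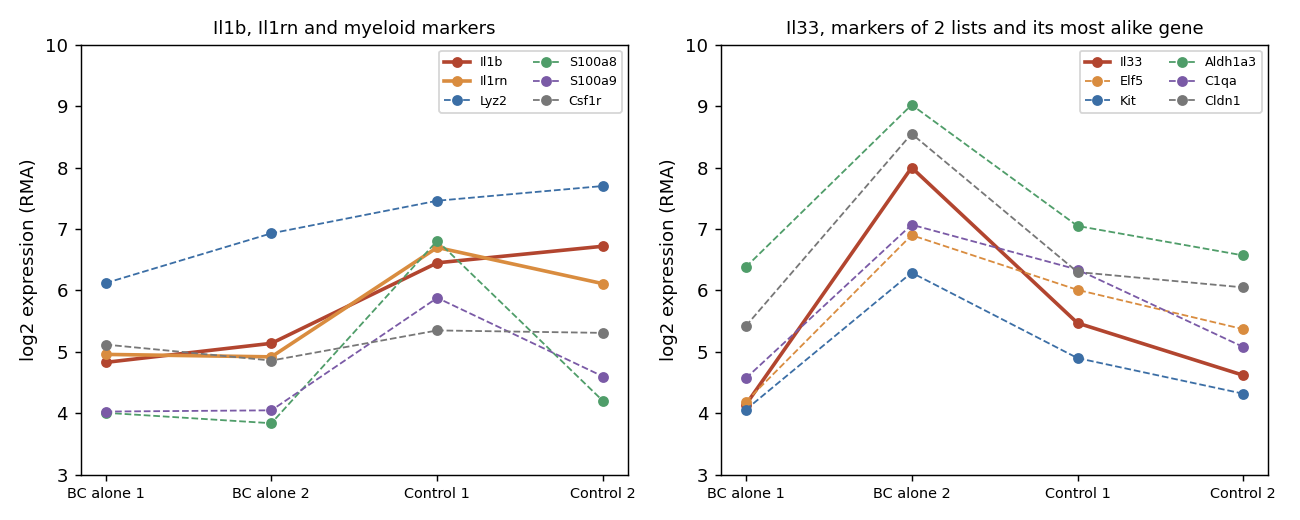
Log2 expression (vertical axis) on the 4 arrays (horizontal axis, BC alone left of control), with solid lines for Il1b, Il1rn and Il33 and dashed lines for other genes; lines join the values of 1 gene and imply no order of the arrays. Left, Lyz2, S100a8 and S100a9 are lower on both BC alone arrays, as Il1b and Il1rn are, though S100a8 overlaps when measured from each array's median. Groups were separate and lower in BC alone for only 3 of 12 macrophage and monocyte markers and 3 of 7 neutrophil markers. Cd68, C1qa and C1qb had a higher mean in BC alone. Right, Il33, Elf5, Kit, Aldh1a3, C1qa and Cldn1 are all highest on BC alone replicate 2. Cldn1 was chosen for its likeness to Il33. The luminal markers Krt8, Krt19 and Pgr, not shown, were lower on BC alone replicate 2 than on replicate 1. Most other macrophage markers were highest on a control array.

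Il1r1, the gene of the signalling receptor (probe set 1448950_PM_at), had 6.09 and 5.71 in BC alone compared with 5.77 and 5.58 in the mixed control. The groups overlapped, and all values lay above the array median, by 0.96 to 1.71. The means of 5.90 ± 0.27 for BC alone and 5.68 ± 0.13 for the control (SD, n = 2) differed by 0.225 ± 0.32 (SE), with an interval from -0.57 to 1.02 (limma, adjusted p = 0.844). That interval does not exclude a level lower by 0.57 or higher by 1.02 on the log2 scale. Leaving out BC alone replicate 1 gave 0.035, leaving out BC alone replicate 2 gave 0.415, and leaving out control replicate 2 gave 0.13.

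Il1r2, the gene of the decoy receptor (probe set 1419532_PM_at), had 3.28 and 3.86 in BC alone compared with 4.18 and 3.93 in the mixed control. Both BC alone arrays were lower, replicate 2 by as little as 0.07, and all 4 values lay under the array median. The means of 3.57 ± 0.41 for BC alone and 4.06 ± 0.18 for the control (SD, n = 2) differed by -0.485 ± 0.35 (SE), with an interval from -1.36 to 0.39 (limma, adjusted p = 0.842). Leaving out BC alone replicate 1 gave -0.195, and leaving out replicate 2 gave -0.775. Counting any separation of the groups whatever its size, 4 of the 7 members were lower in BC alone, Il1a, Il1b, Il1rn and Il1r2, against 19.6% of all genes, and 1 was higher, Il18, against 16.8%. Measured from each array's median, Il1a overlapped, at -1.52 and -1.49 in BC alone compared with -1.23 and -1.65 in the control. Il1r2 then overlapped too, at -1.10 and -0.51 in BC alone compared with -0.20 and -0.69 in the control. A higher mean in BC alone was found in 46.7% of all genes but in 72.3% of those at or above the median level. Dim genes, as Il1a and Il1r2 were, thus more often had a lower mean.

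**Figure D3:**
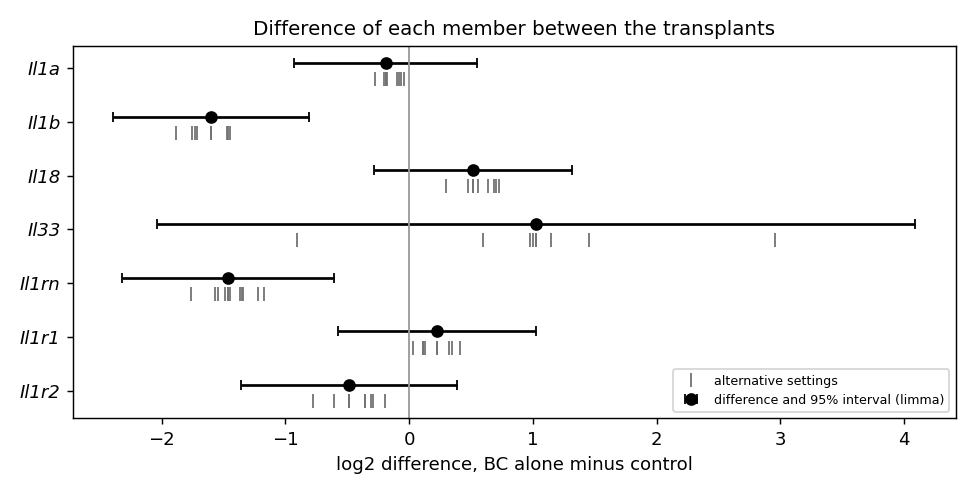
Log2 difference of each gene, BC alone minus control (horizontal axis); black points with bars are the difference and its 95% interval from limma, and grey ticks the value under each alternative setting. The intervals of Il1b and Il1rn, from -2.39 to -0.81 and from -2.32 to -0.61, lie under 0, and the ticks of Il33 alone fall on both sides of 0, from -0.905 to 2.955.

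For the 3 members whose values spanned at least 1 on the log2 scale, the genes with the most similar profile over the 4 arrays were sought by the Euclidean distance between log2 values centred on their mean. For Il1b these were Als2cl at 0.14, Ctss at 0.29 and Smagp at 0.34. Ctss, the lysosomal protease cathepsin S of antigen-presenting cells, had 5.61 and 6.15 in BC alone compared with 7.09 and 7.40 in the mixed control. For Il1rn they were Ms4a6d at 0.17, Alas2 at 0.21 and Rhbdl2 at 0.27. Alas2, the erythroid enzyme of haem synthesis, had 5.10 and 5.02 in BC alone compared with 6.57 and 6.21 in the mixed control. A dimmer probe set of Als2cl and of Rhbdl2 pointed the other way, with differences of 0.19 and 0.215 in BC alone, and for Ms4a6d the dimmest differed by -0.06. For Il33 they were Cldn1 at 0.70, Car2 at 0.73 and Mal2 at 0.76. Cldn1, a tight junction claudin, had 5.42 and 8.55 in BC alone compared with 6.30 and 6.05 in the mixed control.

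Markers of myeloid cells were also lower in BC alone in part. Lyz2, lysozyme of macrophages and neutrophils, had 6.12 and 6.93 in BC alone compared with 7.46 and 7.70 in the mixed control, a difference of -1.055 (limma, adjusted p = 0.842). S100a8, a calprotectin subunit of neutrophils, had 4.01 and 3.84 in BC alone compared with 6.81 and 4.20 in the mixed control. S100a9, its partner, had 4.03 and 4.05 in BC alone compared with 5.88 and 4.60 in the mixed control. The groups did not overlap for these 3, but both S100 genes were high on control replicate 1 above all, whereas Il1b was as high on replicate 2. Measured from each array's median, S100a8 overlapped, at -0.37 and -0.53 in BC alone compared with 2.43 and -0.42 in the control. Of 12 macrophage and monocyte markers 9 had a lower mean in BC alone, with a list mean of 4.68 and 5.78 in BC alone compared with 5.89 and 5.31 in the mixed control, so that the groups overlapped. Of these 12, 2 lay under the array median on all 4 arrays, and the pan-leukocyte gene Ptprc had 2.91 and 3.27 in BC alone compared with 4.21 and 3.26 in the mixed control. All 7 measured neutrophil markers had a lower mean in BC alone, and 4 of the 7 lay under the array median everywhere. Their list mean was 3.78 and 3.67 in BC alone compared with 4.47 and 4.12 in the mixed control. Over all genes 9037 of 17097 had a lower mean. A higher one was found in 46.7% of all genes and in 72.3% of those at or above the median level. Lower means were thus more common among dim genes. The part of myeloid cells in the Il1b and Il1rn values was not tested.

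Among other cell types, the mean of 6 mast cell markers was 3.48 and 3.57 in BC alone compared with 3.55 and 3.96 in the mixed control, and that of 5 T cell and innate lymphoid markers 5.10 and 5.0 in BC alone compared with 4.30 and 4.70 in the mixed control. Fibroblast markers averaged 8.0 and 8.16 in BC alone compared with 7.08 and 6.33 in the mixed control, and endothelial markers 6.39 and 6.49 in BC alone compared with 5.60 and 5.63 in the mixed control. The means of these last 3 lists were higher on both BC alone arrays, where Il1b and Il1rn were lower, though only 2 of the 5 T cell genes had a higher mean. Thy1 counts in both the T cell and the fibroblast list.

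The rest of the family was mostly dim. Of 13 other ligands, receptors and regulators, 7 lay under the array median on all 4 arrays, among them Il1f5, Il1f8, Il1f9, Il1rapl1 and Il1rapl2. None of the 13 differed 2-fold without overlap, and 5 were lower in BC alone without overlap, against 19.6% of all genes. Of these 5, Il1f5 and Il1rapl1 overlapped when measured from each array's median. The median difference of the list was -0.175, against -0.04 over all genes. Dim genes in general more often had a lower mean in BC alone. Il1f6 and Il1f9, which encode the agonists now named interleukin-36 alpha and gamma, differed by -0.73 and -0.695, and their values were highest on control replicate 2, at 4.87 and 4.54. Without that array they differed by -0.10 and -0.395. Il1rap, the accessory chain of the receptor, had 6.85 and 6.70 in BC alone compared with 7.16 and 6.11 in the mixed control. Its difference of 0.14 turned to -0.385 without control replicate 2, and also under another quantile normalization and cyclic loess, at -0.12 and -0.23. Il18r1, a chain of the interleukin-18 receptor, had 4.58 and 5.08 in BC alone compared with 4.63 and 6.45 in the mixed control. Without control replicate 2 its difference turned from -0.71 to 0.20. Sigirr, an inhibitory receptor, and Il18bp, which binds interleukin-18, differed by -0.055 and -0.14, and their sign depended on which array was left out. Il1rl2, the receptor of interleukin-36, differed by 0.605, with 5.0 on BC alone replicate 2, against 3.78 to 4.04 elsewhere, and by 0.12 without that array.

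Adaptors and kinases that carry the receptor's signal mostly had higher means in BC alone, as did bright genes in general. Of 21 measured, 16 had a higher mean, 4 a lower one and 1 an equal one, at a median difference of 0.435, and 0 passed an adjusted p of 0.05 in limma. Over all genes 46.7% had a higher mean, at a median of -0.04, but among the 8550 genes at or above the median level these were 72.3% and 0.375, and no gene of the list lay under the array median on every array. Ikbkg and Rela were 2-fold higher without overlap, 2 of 21, against 4.79% of all genes and 761 of the 8550 bright ones. Rela, though in this list, encodes a subunit of NF-kB and neither an adaptor nor a kinase. Without control replicate 2 they differed by 0.73 and 0.345 and 0 of 21 met the rule, as after another quantile normalization or cyclic loess. Without BC alone replicate 1 Ikbkg differed by 0.415. Irak3, an inhibitory kinase homologue, had 6.40 and 6.62 in BC alone compared with 5.65 and 5.61 in the mixed control, a difference of 0.88 ± 0.30 (SE; limma, unadjusted p = 0.0288, adjusted p = 0.842). Both BC alone arrays were above both control arrays. Tirap, Peli2 and Ikbkg differed by 0.715, 0.915 and 1.025, and Myd88 had 6.25 and 6.26 in BC alone compared with 5.90 and 5.17 in the mixed control, a difference of 0.72. When probe sets were averaged, Irak3, Tirap, Peli2 and Ikbkg differed by 0.48, 0.36, 0.66 and 0.44. Peli2 differed by 0.51 and Myd88 by 0.355 when control replicate 2 was left out. The list mean was 6.77 and 6.74 in BC alone compared with 6.72 and 6.04 in the mixed control, so control replicate 1 was close to the BC alone arrays. Without control replicate 1 the median was 0.90, without control replicate 2 it was 0.05, and after cyclic loess -0.02.

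Inflammasome and processing genes showed a 2-fold difference without overlap in 0 of 20, against 4.79% of all genes higher and 0.895% lower, which is near the background. Without control replicate 1 the median difference of the list was 0.775. Nlrp3, the sensor that activates caspase-1, had 3.98 and 4.21 in BC alone compared with 4.48 and 4.90 in the mixed control, a difference of -0.595 with no overlap, and of -0.385 without control replicate 2. Casp1, which cleaves the interleukin-1 beta precursor, had 5.51 and 5.23 in BC alone compared with 5.85 and 4.61 in the mixed control, and the adaptor Pycard had 7.51 and 7.54 in BC alone compared with 7.85 and 5.90 in the mixed control. Both overlapped, and both differences, 0.14 and 0.65, turned to -0.48 and -0.325 without control replicate 2. The other genes with the smallest p, S100a13, Capn2 and Txnip, differed by 0.545, 0.71 and 0.75, the first turning sign after another quantile normalization and the last after cyclic loess. Capn2 differed by 0.245 and Txnip by 0.055 when control replicate 2 was left out. The median of the list was 0.25, and it ran from -0.01 to 0.775 when 1 array was left out, the lowest without control replicate 2.

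**Figure D4:**
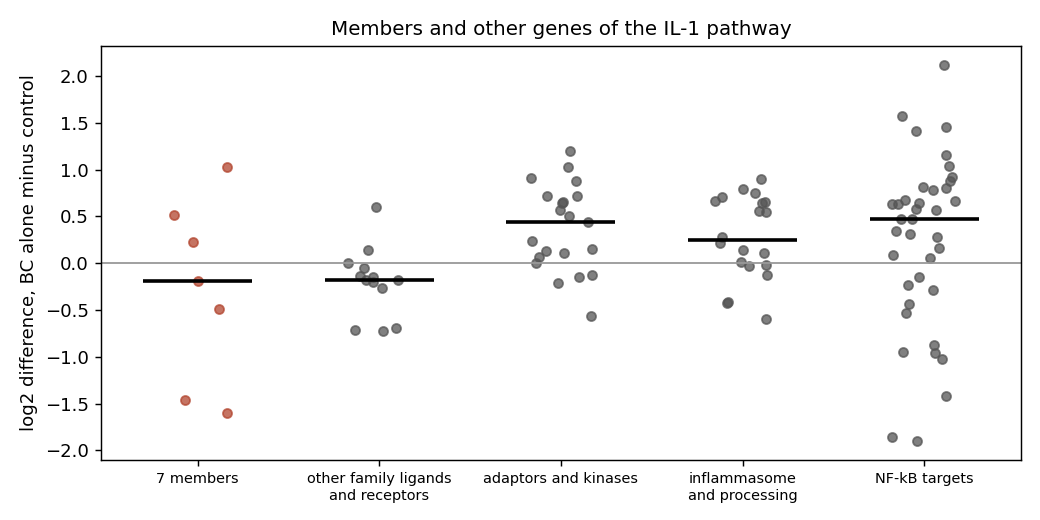
Log2 difference, BC alone minus control (vertical axis), of the 7 members and of each gene in 4 lists of the pathway; points are genes and black bars list medians. The median is -0.19 for the members, -0.175 for other family genes, 0.435 for adaptors and kinases, 0.25 for inflammasome genes and 0.475 for NF-kB targets, whose genes run from -1.90 to 2.12.

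Genes listed here as NF-kB targets were divided, and their induction by NF-kB was not tested in these cells. Of 38 measured, 4 were at least 2-fold higher in BC alone without overlap, Ptgs2, Saa3, Cebpd and Ccl2, against 4.79% of all genes, and 4 were lower, Mmp13, Hp, Bcl2a1a and Csf3, against 0.895%. The list was mostly bright, with 1 of the 38 under the array median on all 4 arrays. Of the 8550 genes at or above the median level, 761 met the rule higher and 92 lower. Their median difference was 0.375, against 0.475 for the list. Without control replicate 2 Saa3, Cebpd, Ccl2 and Csf3 differed by 0.745, 0.44, 0.495 and -0.40 and no longer met the rule, while Ptgs2, Mmp13, Hp and Bcl2a1a did. Without control replicate 1 Ptgs2, Saa3, Cebpd and Ccl2 differed by 2.81, 2.395, 2.39 and 1.815. Mmp13, Hp, Bcl2a1a and Csf3 then differed by -1.655, -2.21, -1.245 and -1.65. The list was drawn up with earlier results of these data known. In it 0 passed an adjusted p of 0.05 in limma, while 7 of 38 had an unadjusted p under 0.05, against 3.98% of all genes. Of these, Mmp13, Hp, Bcl2a1a, Mmp9 and Cxcl2 were lower in BC alone, and Ptgs2 and Saa3 were higher. Ptgs2, the inducible cyclooxygenase, had 7.06 and 6.72 in BC alone compared with 5.46 and 4.08 in the mixed control, a difference of 2.12 ± 0.52 (SE; limma, adjusted p = 0.842, and adjusted p = 0.0160 with an intensity trend). It differed by 0.915 with the mean of its probe sets, under 2-fold, and by 1.43 without control replicate 2. Mmp13, a collagenase, had 2.62 and 2.89 in BC alone compared with 4.90 and 4.41 in the mixed control, a difference of -1.90 ± 0.34 (SE; limma, adjusted p = 0.842, and adjusted p = 5.088e-07 with an intensity trend). Unlike most of the list Mmp13 was dim, at -1.76 and -1.48 from the array median in BC alone and 0.52 and -0.21 in the control. It has no value under the filter on dim genes. Hp, haptoglobin, had 6.12 and 6.76 in BC alone compared with 7.95 and 8.65 in the mixed control. Bcl2a1a, a survival factor whose probe set can bind its close paralogs, had 4.88 and 5.19 in BC alone compared with 6.62 and 6.28 in the mixed control. These 3 were lower on both BC alone arrays, as Il1b was, and Ptgs2 was higher on both.

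The chemokines also differed from one another. Cxcl2, which attracts neutrophils, had 9.14 and 8.97 in BC alone compared with 9.99 and 9.87 in the mixed control, a difference of -0.875 with no overlap, which grew to -1.51 with another quantile normalization and to -1.69 with cyclic loess. Cxcl1, its close relative, had 8.70 and 8.72 in BC alone compared with 8.96 and 7.19 in the mixed control. Its difference of 0.635 turned to -0.25 without control replicate 2 and to -0.04 after cyclic loess. Il6, the gene of interleukin-6, had 3.54 and 5.12 in BC alone compared with 5.64 and 3.60 in the mixed control, and the groups overlapped. The difference of Il6 was -1.31 when control replicate 2 was left out, and 0.73 when replicate 1 was. The feedback inhibitors Nfkbia and Tnfaip3 differed by 0.66 and 0.565, with no overlap, and their sign turned after cyclic loess, at -0.26 and -0.04, and that of Tnfaip3 also after another quantile normalization, at -0.09. Nfkbia differed by 0.195 when control replicate 2 was left out. The list median of 0.475 was 0.08 when control replicate 2 was left out, 0.70 when replicate 1 was, 0.02 after another quantile normalization, 0.05 after cyclic loess and 0.255 when probe sets were averaged.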

How the data were processed

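The deposited table holds log2 expression of each probe set. The submitters' processing notes name RMA and affy, without versions, as what the authors used. Depth does not apply to arrays. Of 45141 probe sets, 28898 had 1 symbol, 551 several and 15692 none. The probe set with the highest mean over the arrays stood for a gene, without a filter on dim ones, which left 17097 genes. The build behind the array annotation is not given in the sources used here, and promoter coordinates are those of the RefSeq table. BC alone was compared with the control in limma 3.58.1 under R 4.3.3 (lmFit, eBayes, two-sided, Benjamini-Hochberg over all genes, threshold 0.05), with 2 residual and 3.5 prior degrees of freedom. The fit was tested on simulated data. A descriptive rule took differences of at least 1 on the log2 scale without overlap. No 2 arrays held the same values, with at most 771 identical ones. Members and gene lists were chosen with earlier results of these data known. Named were the members, all other family genes measured, the 4 genes of each other pathway list with the smallest p, 11 fixed genes (Casp1, Nlrp3, Pycard, Myd88, Irak3, Tnfaip3, Nfkbia, Cxcl1, Cxcl2, Il6 and Ptgs2) and the 3 most alike genes. Other genes were named after their values were seen. Markers were described by list. Alternatives left out each array, rescaled the arrays, averaged probe sets, dropped dim genes, changed the variance model or added the replicate number as a block.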

Additional observations from a re-analysis of the deposited data

How the results depend on the processing

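Of 83 alternative values of the 7 members, 82 kept the sign of the difference, and none passed an adjusted p of 0.05. The exception was Il33, which ran from -0.905 to 2.955 when 1 array was left out. With the replicate number as a block, Il1b had an adjusted p of 0.164 and Il1rn of 0.273, against 0.180 and 0.263 with an intensity trend. The block let 108 genes of the array pass and the trend 97, against 0. Among the pathway genes named, Mmp13, Hp and Ptgs2 passed with the block, at adjusted p of 0.0385, 0.0453 and 0.0128, and Mmp13 and Ptgs2 with the trend. Deviations of same-numbered arrays from their group means had r = -0.018 across genes. With 2 arrays in each group this is a single correlation, so it cannot settle whether the numbers pair the arrays. Il1a, Il18 and Il1r2 lay below the median level of all genes and have no value under the filter on dim genes. The same held for Mmp13.

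Leaving out 1 array gave 375 genes (without control replicate 2) to 3101 (without control replicate 1) at least 2-fold higher without overlap, 224 (without BC alone replicate 1) to 723 (without control replicate 1) lower, and 0 to 1 members higher, the 1 being Il33 without BC alone replicate 1. The higher count was 334 after quantile normalization, 301 after cyclic loess and 505 with the mean of probe sets. The lower count was 280 and 232 after those scalings, 100 after median centring and 92 without dim genes. Over all genes the median difference was -0.04, and it was 0.085 after median centring and 0.375 without dim genes, where that of adaptors and kinases was 0.505. List medians ran from 0.05 to 0.90 for adaptors and kinases and from 0.0775 to 0.70 for NF-kB targets without 1 array, were -0.0235 and 0.0539 after cyclic loess, and 0.0228 for NF-kB targets after quantile normalization and 0.255 with the mean of probe sets.

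Of 33 other pathway genes, 15 changed sign under some setting. Without 1 array Il1f10 ran from -0.54 to 0.01, Il1rap from -0.385 to 0.665, Il18r1 from -1.62 to 0.20, Il18rap from -0.435 to 0.035, Il18bp from -0.40 to 0.12, Sigirr from -0.435 to 0.325, Casp1 from -0.48 to 0.76, Pycard from -0.325 to 1.625, Cxcl1 from -0.25 to 1.52 and Il6 from -1.31 to 0.73. After quantile normalization Il1f5 was at 0.015, Il1rap at -0.12, S100a13 at -0.04 and Tnfaip3 at -0.0925. After cyclic loess Il1f5 was at 0.045, Il1rap at -0.23, Txnip at -0.0328, Tnfaip3 at -0.0378, Nfkbia at -0.26 and Cxcl1 at -0.0406. Il1rap was at -0.024 with the mean of probe sets and Sigirr at 0.07 after median centring. By the 2-fold rule, leaving out 1 array gave 0 to 7 adaptors and kinases higher, 0 to 8 inflammasome genes higher, 2 to 16 NF-kB targets higher, and 0 to 1 other family genes higher and 0 to 2 lower, the highest counts coming without control replicate 1 except the 1, without BC alone replicate 1. For adaptors and kinases the higher count was 0 after quantile normalization and cyclic loess, 4 after median centring and 1 with the mean of probe sets, and for NF-kB targets it was 2 after quantile normalization and cyclic loess. The higher count over all genes also rose without control replicate 1, as given above. The causes were not tested.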
